A study of Mus musculus with 58 samples.

Results

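Steady-state RNA of an insert library in mouse embryonic stem cells was compared with RNA that was still being made. The comparison took 4 libraries of total RNA and 2 of nascent run-on RNA, each set against the genomic DNA (gDNA) of the same cells, which came to 11 of the 58 samples of the series. The method, INSERT-seq, places many short sequences behind 1 promoter and counts the RNA of each insert relative to its integrated copies. The library held 16461 inserts of 175 nt. It was integrated on the 129 allele, 157 nt past the start of the RNA that runs upstream of Pou5f1 in antisense, and mKate2, which codes for a red fluorescent protein, followed it. Pou5f1, which encodes the pluripotency factor Oct4, lies on chromosome 17 from 35506032 to 35510777 (GRCm38.p6, protein-coding).

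All 11 samples came from untreated F121-9 cells, a hybrid line in which the 129 and CAST alleles can be told apart. Every sample also carried the mKate2 reporter and the blue fluorescent protein TagBFP2 at the Oct4 C terminus of the 129 allele, and all cultures received LIF with inhibitors of MEK and GSK3. For total RNA, whole cells were lysed in Trizol. For run-on RNA, permeabilized cells were given biotin-labelled C and U nucleotides for 15 min, and the labelled RNA was captured on streptavidin beads. Both kinds were reverse transcribed from a primer in mKate2, 221 nt downstream of the insert, so an RNA had to reach that point to be read. Total RNA 4 and run-on RNA 1 were set against the same gDNA library and are here called screen 4. The other libraries had a gDNA library each. The reads cover inserts only, so the cell type could not be checked against marker genes.

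RNA upstream of Pou5f1 is antisense to the gene. Such RNAs are usually short, and the nuclear RNA exosome, which degrades RNA from its 3' end, removes them quickly. RNA polymerase II transcripts are spliced while they are made and after their release, and a steady-state level is the balance of synthesis and decay. Run-on labelling marks RNA held by a polymerase that can still elongate, so it lies near the synthesis side of that balance. An intron inside an insert is seen here as reads on a spliced reference, from which part of the insert is missing. Of the 16461 inserts, 2404 had such a reference. The files give inserts by number only, so no insert is tied to a gene or a sequence here.

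Total RNA libraries held 2665226, 22739490, 24292270 and 94099800 reads on inserts, and run-on libraries held 47950126 and 61202674. Their gDNA libraries held 1991728 to 29442628 reads. Among the 10616 inserts with at least 50 reads in all 5 gDNA libraries, 108, 177, 531 and 0 had no read in total RNA 1 to 4, against 1 and 5 in run-on RNA 1 and 2. A level is given as log2 RNA per gDNA after TMM scaling, so 0 need not mean equal shares of RNA and gDNA reads. A level is RNA per integrated copy, and fewer transcribing cells and less RNA per cell cannot be told apart. Across these inserts, run-on RNA 1 correlated with total RNA 4 of the same screen at Pearson r = 0.617, and with run-on RNA 2 at 0.415. Pairs of total RNA libraries correlated at 0.608 to 0.737. The 2 run-on libraries were thus less alike than any pair of total RNA libraries. Run-on RNA 1 correlated with total RNA 1, 2 and 3, which have other gDNA, at 0.486, 0.447 and 0.414. It was thus no closer to run-on RNA 2 than to total RNA of other screens. Run-on RNA 2 correlated with total RNA 1 to 4 at 0.335, 0.354, 0.310 and 0.389. Division by the same gDNA counts adds to the correlation within screen 4, and its part was not tested. These values run across inserts of 1 library, which are not replicates.

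The 2 kinds of RNA did not overlap in how much of it was spliced. Inserts with a spliced reference were compared by their spliced share, the percentage of an insert's RNA reads that fell on spliced references. At least 20 reads in each of the 6 RNA libraries were held by 1995 inserts. The median share was 40.4%, 23.5%, 29.6% and 48.1% in total RNA 1 to 4, against 9.15% and 6.04% in run-on RNA 1 and 2. All 4 total RNA medians lay above both run-on medians. They averaged 35.4% ± 11.0 in total RNA (SD, n = 4) and 7.59% ± 2.20 in run-on RNA (SD, n = 2). The two-sided exact permutation test gave p = 0.133, the smallest value that 15 regroupings allow, so 4 libraries against 2 could not pass 0.05. Which inserts were kept set the size of the gap. With at least 50 gDNA reads in all 5 gDNA libraries, the filter of the level results, the medians averaged 20.2% in total RNA and 3.26% in run-on RNA. With at least 200 RNA reads per library they averaged 68.9% in total RNA and 24.3% in run-on RNA. Within screen 4 the medians were 48.1% in total RNA and 9.15% in run-on RNA. Over all reads of these inserts, spliced reads made up 66.4%, 42.5%, 48.8% and 72.3% in total RNA and 31.1% and 19.9% in run-on RNA.

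**Figure D1:**
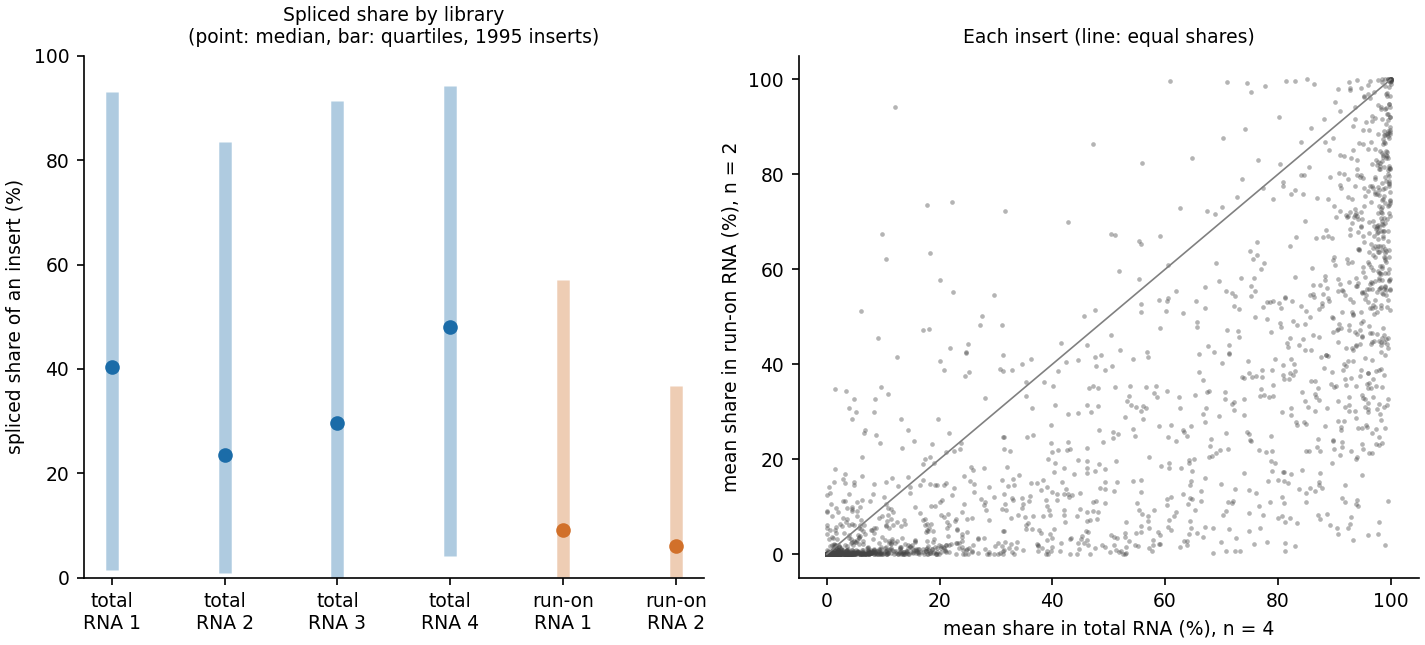
Spliced share (%) of 1995 inserts. Left, median (point) and quartiles (bar) in each of the 4 total RNA and 2 run-on RNA libraries, where all total RNA medians lie above both run-on medians. Right, mean share of each insert in total RNA (x) and run-on RNA (y), where 1642 inserts lie below the line of equal shares and 201 above it.

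Insert by insert, the mean share was higher in total than in run-on RNA for 1642 inserts, lower for 201 and equal for 152, of which 147 had no spliced read in any of the 6 libraries. All 4 total RNA shares lay above both run-on shares for 812 inserts, 40.7% of those compared, and below both for 18, 0.902%. The median difference was 12.6 percentage points, with quartiles of 1.04 and 35.5. A difference above 50 points in favour of total RNA was found for 254 inserts, and one of that size in favour of run-on RNA for 5. In total RNA, 466 inserts were spliced to 90% or more, against 76 in run-on RNA. Under 1% stood 277 inserts in total RNA and 654 in run-on RNA. Of the 466 inserts that were almost wholly spliced in total RNA, 269 had a run-on share of 50 to 90%, 123 of 10 to 50%, 10 of 1 to 10% and 64 of 90% or more. Intermediate run-on shares were thus the usual state of inserts that were near completion at steady state.

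Tested one by one, few inserts passed. The edgeR quasi-likelihood test of spliced against unspliced reads, with Benjamini-Hochberg adjustment over 1843 inserts that had reads of both forms, called 5 inserts, all with a higher share in total RNA (0.271% of those tested). At an unadjusted p under 0.05 there were 580 inserts, 31.5% of those tested, of which 570 were higher and 10 lower in total RNA. DESeq2 called 793 inserts (765 higher, 28 lower). A limma test on log2 odds called 0, with 691 at an unadjusted p under 0.05. With at least 200 reads in each library, 140 of 907 inserts passed in edgeR, all higher in total RNA. Leaving out any single library (each of total RNA 1 to 4 and run-on RNA 1 and 2) left 0 calls in edgeR, with 193 to 600 at an unadjusted p under 0.05.

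Insert sequence_12457, whose spliced form lacks 86 nt, was 1 of the 5. Its spliced share was 99.1%, 96.5%, 97.7% and 98.8% in total RNA, against 21.2% and 28.0% in run-on RNA. Every total RNA library was near full splicing, and neither run-on library came near it. The share differed by 7.43 in log2 odds (SE 1.19, adjusted p = 0.0379, edgeR quasi-likelihood test). Insert sequence_13486, whose spliced form lacks 114 nt, passed as well. Its share was 98.5%, 97.3%, 98.6% and 99.0% in total RNA, against 52.6% and 35.5% in run-on RNA, and it differed by 6.35 in log2 odds (SE 1.02, adjusted p = 0.0379, edgeR). Reads on this insert numbered 1866 to 42898 per total RNA library and 9816 and 8976 in run-on RNA. The adjusted p of each was 0.0511 in limma and 0.0591 to 0.414 with a library left out, and reached as low as 1.62e-08 for sequence_12457 and 2.22e-07 for sequence_13486 over all alternatives.

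The largest gaps in favour of total RNA, among inserts that had 200 or more reads per library and no overlap between the kinds, did not pass when all 1843 inserts were tested. Insert sequence_12804 was spliced to 100%, 100%, 97.3% and 93.4% in total RNA and to 1.27% and 7.03% in run-on RNA (adjusted p = 0.0894, edgeR). Insert sequence_12257 was spliced to 100%, 97.5%, 97.9% and 96.7% in total RNA and to 9.52% and 3.99% in run-on RNA (adjusted p = 0.0638, edgeR). Their gDNA was thin, at 2 and 6 reads in screen 4 and 12 and 8 reads for total RNA 1. The other gDNA libraries held 54 to 260 reads of sequence_12804 and 368 to 1144 of sequence_12257. Both inserts fell below the gDNA minimum of the level results and have no level here. A share is computed without gDNA, but whether so few gDNA reads went with an unreliable share was not tested. When only the 907 inserts with at least 200 reads per library were tested, both passed in edgeR (adjusted p = 0.0471 for sequence_12804 and 0.0387 for sequence_12257), and over all alternatives the adjusted p spanned 3.86e-06 to 0.414 for sequence_12804 and 1.61e-07 to 0.414 for sequence_12257. Both were nearly fully spliced at steady state and nearly unspliced in run-on RNA. Inserts with the opposite order existed. Insert sequence_03993, whose spliced form lacks 98 nt, was spliced to 6.79%, 2.35%, 0% and 15.0% in total RNA. In run-on RNA it was spliced to 63.4% and 39.0% (adjusted p = 0.184, edgeR). Insert sequence_03166 has 2 spliced forms, for which a single length removed, 39 nt, was taken. Which of the 2 forms held its spliced reads was not looked at, so its share cannot be tied to that length. Inserts with 1 spliced form and under 70 nt missing had a median share of 0 in every library. Insert sequence_03166 was spliced to 2.13%, 0%, 0% and 3.50% in total RNA and to 34.1% and 35.4% in run-on RNA (adjusted p = 0.127, edgeR). A 0 here stands for 0 of 1318 read pairs of sequence_03993 in total RNA 3, which allows a share of up to 0.228%, and for 0 of 1540 and 0 of 1651 read pairs of sequence_03166 in total RNA 2 and 3, which allow up to 0.195% and 0.182%. These limits take 3 read pairs of the total, since both mates of a pair were counted, and cover counting error only. Their levels overlapped between the kinds, with a log2 fold change of total over run-on RNA of -0.10 for sequence_03993 (SE 0.50) and 0.52 for sequence_03166 (SE 0.36).

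The length that splicing removed went with the share in both kinds of RNA. Where under 70 nt was missing from the spliced form, the median share was 0 in each of the 6 libraries (287 inserts). Where 70 to 94 nt was missing, the medians of 575 inserts were 51.6%, 33.1%, 41.1% and 47.9% in total RNA, against 8.36% and 4.58% in run-on RNA. From 95 to under 120 nt, the medians of 536 inserts were 56.7%, 36.2%, 49.9% and 68.4% in total RNA, against 16.0% and 8.49% in run-on RNA. At 120 nt or more, the medians of 475 inserts were 85.2%, 59.0%, 62.9% and 91.2% in total RNA, against 47.2% and 25.9% in run-on RNA. All total RNA medians lay above both run-on medians in each class from 70 nt up. The mean of the medians was 6.71 times as high in total as in run-on RNA at 70 to 94 nt, 4.32 times from 95 to under 120 nt and 2.04 times at 120 nt or more, while the difference stayed at 37.0, 40.5 and 38.0 percentage points. Among 122 inserts with 2 or more spliced forms the medians averaged 27.0% ± 10.3 in total RNA (SD, n = 4) and 3.67% ± 2.59 in run-on RNA (SD, n = 2). For the most abundant form, spliced reads were summed over the libraries of a kind, with at least 20 in each sum. Total RNA 4 weighs most in such a sum, with 21039358 spliced reads, against 508236, 1890748 and 2421358 in total RNA 1 to 3. Of 105 inserts with several forms and enough spliced reads, 78 had the same most abundant form in both kinds of RNA. The other 27 differed, with the longer piece removed in total RNA for 12 and the shorter for 15.

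**Figure D2:**
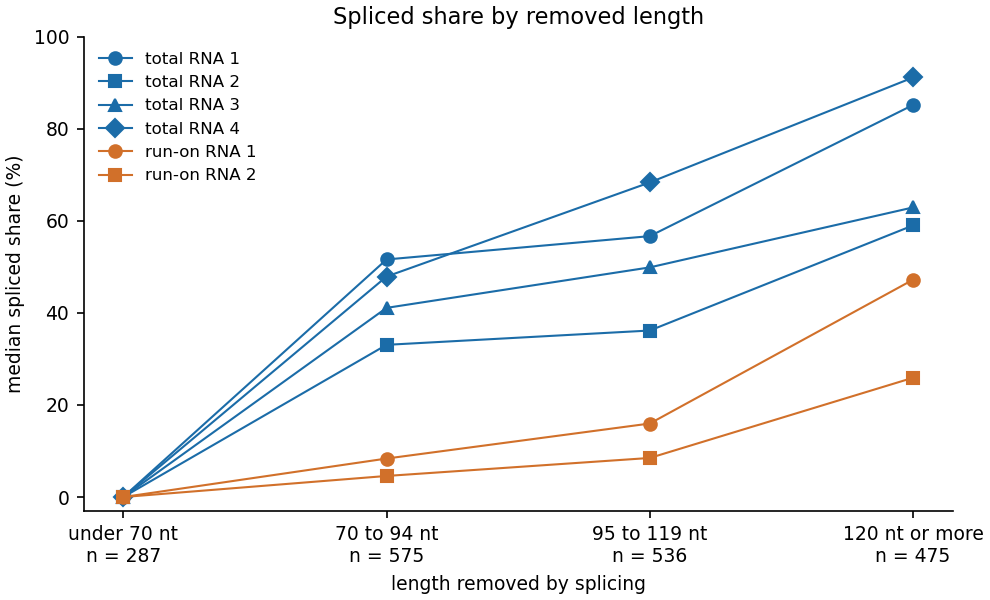
Median spliced share (%) by the length missing from the spliced form (nt), with 1 line per library. Both kinds start at 0 under 70 nt, and from 70 nt up all 4 total RNA lines lie above both run-on lines in every class.

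Inserts were also grouped by a spliced share measured in other cultures. Cells treated with a non-targeting siRNA (siNT, 40 nM for 48 h) carried the same library at the same site, and their total RNA, pooled over 3 cultures, gave each insert a share that none of the 6 libraries entered. Inserts at 90% or more in siNT cells (621 inserts) had medians of 97.1%, 92.7%, 96.9% and 97.9% in total RNA, against 68.2% and 50.0% in run-on RNA. Inserts at 50 to 90% (344 inserts) averaged 57.9% ± 14.5 in total RNA (SD, n = 4) and 16.9% ± 6.82 in run-on RNA (SD, n = 2). Inserts at 10 to 50% (329 inserts) averaged 15.7% ± 8.20 in total RNA and 2.02% ± 0.472 in run-on RNA. Inserts at 1 to 10% (204 inserts) averaged 2.06% ± 2.09 in total RNA and 0.184% ± 0.0513 in run-on RNA. The run-on share thus went up with the steady-state share but was below it in each of these classes. No run-on RNA was made from siNT cells, and the classes rest on a total RNA share. The grouping is thus no independent comparison of the kinds. The difference was 37.0 percentage points in the class at 90% or more, 41.0 at 50 to 90%, 13.7 at 10 to 50% and 1.87 at 1 to 10%.

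Levels were then compared. Of 10616 inserts tested with edgeR's quasi-likelihood test, with the screen as a block and Benjamini-Hochberg adjustment, 532 differed between total and run-on RNA relative to gDNA (5.01%). Of these, 428 were higher in total RNA (4.03% of those tested) and 104 lower (0.98%). The 1418 inserts with a spliced reference held 139 that were higher and 6 that were lower, and their median log2 fold change of total over run-on RNA was 0.70. The 9198 inserts without one held 289 higher and 98 lower, with a median of -0.05, and the median over all inserts was 0.03. Higher inserts were thus 9.80% of those with a spliced reference and 3.14% of those without, against 4.03% overall. Whether these shares differ was not tested.

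How many inserts passed rested on single libraries, and most of all on screen 4. Without total RNA 4 there were 52 calls, without run-on RNA 1 there were 42, without run-on RNA 2 there were 81 and without total RNA 2 there were 349. Without total RNA 3 there were more calls, 616. Leaving out total RNA 1, 2 or 3 or run-on RNA 2 also dropped the other libraries of that screen, gDNA included. Without total RNA 1 there were 153 calls, but its gDNA filter then dropped out too and 14208 inserts were tested, so the library and the filter cannot be told apart. Without both libraries of screen 4 there were 0 in edgeR, with 1208 at an unadjusted p under 0.05. With all libraries, 2348 had an unadjusted p under 0.05, DESeq2 called 1343 (973 higher, 370 lower), and limma on the 6 values of log2 RNA per gDNA called 0, with 1698 at an unadjusted p under 0.05. Without the block there were 520 calls (357 higher, 163 lower), of which 308 were among the 532. Scaling to library totals in place of TMM moved the median over all inserts to -0.34 and the calls to 176 higher and 192 lower. Inserts with a spliced reference lay 0.74 above the others by median log2 fold change on that scale (0.32 against -0.42), but the split into higher and lower calls depends on the scaling.

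Inserts with a spliced reference gave more RNA per gDNA than the others in both kinds of RNA, and more so in total RNA. The gap between the class medians of log2 RNA per gDNA was 1.11, 0.86, 0.86 and 1.28 in total RNA, against 0.43 and 0.29 in run-on RNA. All 4 total RNA gaps lay above both run-on gaps. The mean gap was 1.03 ± 0.21 in total RNA (SD, n = 4) and 0.36 ± 0.10 in run-on RNA (SD, n = 2), a difference of 0.67 (two-sided exact permutation test, p = 0.133, the smallest possible). Within screen 4, the gap was 1.28 in total RNA and 0.43 in run-on RNA. The class took up 28.7%, 19.6%, 20.4% and 30.9% of the reads of the total RNA libraries, against 16.7% and 14.8% of the run-on libraries. In the gDNA libraries its share was 11.8% to 13.0%. The sources used here do not say how the spliced references were chosen. Whether RNA of the libraries compared here entered that choice, and with it the class gap, cannot be told.

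The excess in total RNA lay in the spliced reads. Counting unspliced reads alone, the gap turned round, to -0.25, -0.13, -0.22 and -0.32 in total RNA, against -0.04 and 0.05 in run-on RNA. The difference between the kinds was then -0.24 (exact permutation test, p = 0.133). Leaving out spliced reads takes reads from this class alone, and a larger part of them in total RNA. The turn thus follows in part from the higher spliced share in total RNA and is no separate result. In total RNA, unspliced RNA of the class was below that of the other inserts, and in run-on RNA it was about level with it. From unspliced reads, 381 inserts were called higher in total RNA (3.59% of 10616) and 144 lower (1.36%). With a spliced reference, 49 were higher and 48 lower of 1418, and the class median log2 fold change was -0.20. Without one, 332 were higher and 96 lower of 9198.

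Sorted by their siNT share, inserts stood higher in level from 50% up, and more so in total RNA. Among the classes under 50%, levels rose in order in total RNA 1 and 2. They did not in total RNA 3 and 4 or in run-on RNA. The 335 tested inserts at 90% or more in siNT cells had median levels of 2.54, 1.68, 1.77 and 3.17 log2 RNA per gDNA in total RNA, against 1.17 and 1.06 in run-on RNA. The total RNA libraries all lay above both run-on libraries, and 73 of the 335 inserts (21.8%) were called higher in total RNA and 0 lower. Their median log2 fold change was 1.45, and 35 of the 335 (10.4%) were lower and 2 higher when unspliced reads alone were counted. From those reads the median levels were -2.33, -1.73, -2.34 and -2.34 in total RNA, against -0.42 and 0.11 in run-on RNA. The same inserts thus stood highest by all their RNA and lowest by their unspliced RNA in total RNA. The class was chosen by a high spliced share in siNT total RNA. Few unspliced reads in total RNA, and lower calls from those reads, thus follow in part from that choice. Inserts without a spliced reference had median levels of -0.02 and 0.00 in run-on RNA.

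The less spliced classes had smaller differences between the kinds. At 50 to 90% in siNT cells (244 inserts), median levels averaged 1.13 ± 0.27 in total RNA (SD, n = 4). In run-on RNA they averaged 0.41 ± 0.12 (SD, n = 2). Of these inserts, 25 were called higher (10.2%) and 0 lower, against 4.03% and 0.98% of all tested inserts. From unspliced reads the median levels averaged -0.35 ± 0.07 in total RNA and 0.00 ± 0.03 in run-on RNA. At 10 to 50% (257 inserts) the levels averaged 0.44 ± 0.11 in total RNA and 0.12 ± 0.02 in run-on RNA. Here 16 inserts were higher (6.23%) and 0 lower. At 1 to 10% (174 inserts) the levels averaged 0.31 ± 0.10 in total RNA and 0.18 ± 0.03 in run-on RNA. Here 3 inserts were higher and 3 lower (1.72% each). Under 1% (356 inserts) the levels averaged 0.26 ± 0.07 in total RNA and 0.13 ± 0.09 in run-on RNA, with 20 higher and 3 lower. In that last class, with almost no splicing in siNT cells, the ranges of the 2 kinds overlapped, and 5.62% were called higher against 4.03% overall.

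**Figure D3:**
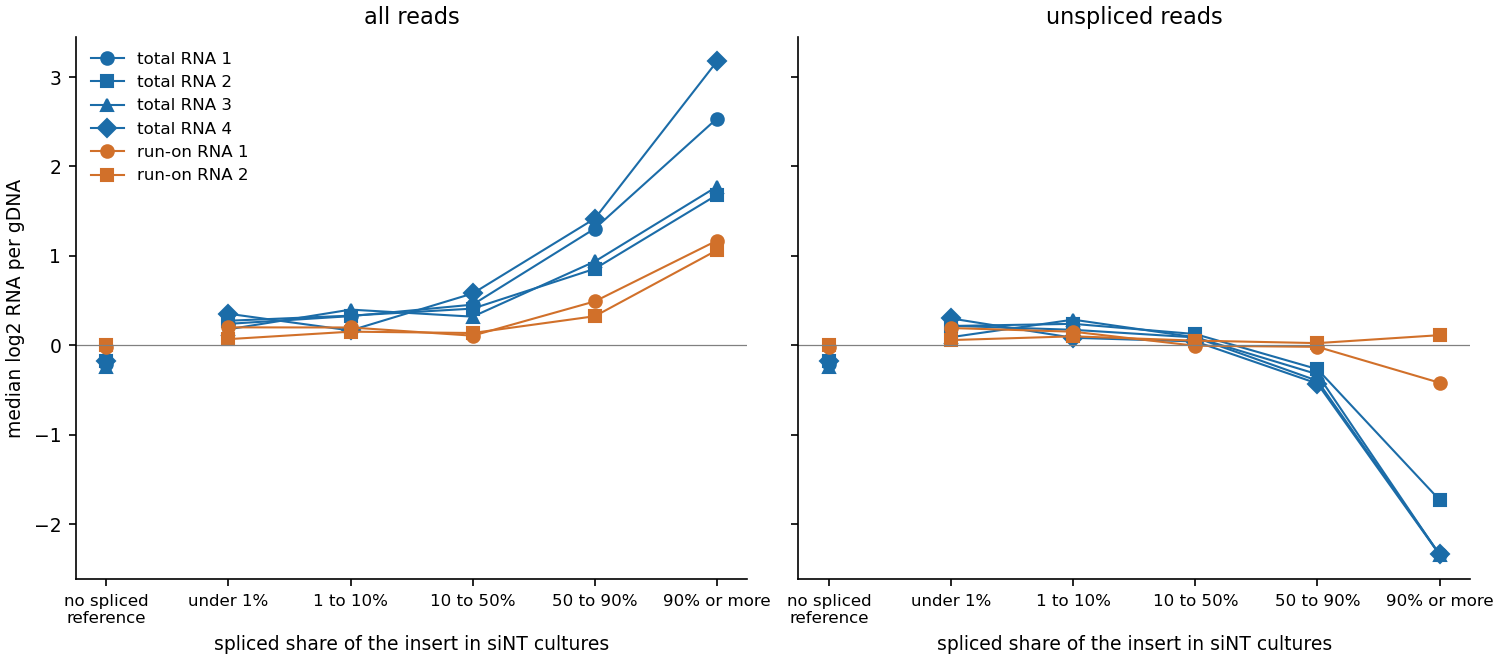
Median log2 RNA per gDNA of inserts without a spliced reference and of inserts grouped by their spliced share in siNT cells, with 1 line per library. Left, all reads, where the group at 90% or more lies at 1.68 to 3.17 in total RNA and at 1.06 and 1.17 in run-on RNA. Right, unspliced reads alone, where it lies at -2.34 to -1.73 in total RNA and at -0.42 and 0.11 in run-on RNA.

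Among inserts with a spliced reference, sequence_12253 was highest in total over run-on RNA. It had 186, 1434, 1328 and 4144 reads in total RNA over 112, 250, 378 and 666 in gDNA, against 78 and 70 reads in run-on RNA over 666 and 1466 in gDNA. Its level was 0.97, 2.35, 1.35 and 1.68 in total RNA, against -3.51 and -5.20 in run-on RNA. It rose by 5.80 on the log2 scale (SE 0.75, adjusted p = 0.00399, edgeR quasi-likelihood test). The next, sequence_12280, stood at 1.84, 0.69, -0.07 and 0.27 in total RNA, against -4.22 and -5.91 in run-on RNA, and rose by 5.59 (SE 0.77, adjusted p = 0.00451, edgeR). Both were scarce among run-on RNA for their gDNA, with no overlap. In total RNA, sequence_12253 averaged 1.59 and sequence_12280 averaged 0.68, against an average of 0.82 for the median of the class. Their spliced shares overlapped between the kinds, at 21.6% to 68.0% in total RNA and 40.0% and 41.0% in run-on RNA for sequence_12253, and neither insert was called for its share. Their calls were lost without both libraries of screen 4 (adjusted p = 0.0850 for each, edgeR) and in limma (0.0817 for each), and over all alternatives the adjusted p spanned 2.64e-13 to 0.0850 for sequence_12253.

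In the other direction, sequence_07412 was at -3.28, -3.40, -4.02 and -3.95 in total RNA, against -1.53 and 0.07 in run-on RNA. It fell by 2.90 on the log2 scale (SE 0.74, adjusted p = 0.0439, edgeR). Insert sequence_07901 was at -2.03, -1.56, -2.87 and -0.88 in total RNA, against 0.67 and 0.30 in run-on RNA, and fell by 2.04 (SE 0.54, adjusted p = 0.0492, edgeR). Both have a spliced reference, but only 4 spliced reads were found on sequence_07412, in total RNA 2, and 0 of 7446 read pairs on sequence_07901, which allows a share of up to 0.0403%. Each call was lost when any one of total RNA 1, 2 or 4 or run-on RNA 1 or 2 was left out, with adjusted p from 0.0587 to 0.335 for the 2 inserts, and over all alternatives it spanned 0.00276 to 0.292 for sequence_07412.

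Inserts without a spliced reference reached the same size of difference. Insert sequence_02370 stood at 1.31, 0.51, 1.24 and -0.24 in total RNA, against -5.42 and -5.50 in run-on RNA, where it had 4 and 14 reads. It rose by 6.54 on the log2 scale (SE 0.94, adjusted p = 0.00451, edgeR). Insert sequence_04118 stood at 0.57, 0.98, 1.80 and 1.02 in total RNA, against -4.64 and -3.93 in run-on RNA, and rose by 5.67 (SE 0.79, adjusted p = 0.00451, edgeR). Both were well represented in total RNA and nearly missing from run-on RNA at matched gDNA. Their calls were lost without run-on RNA 1 (adjusted p = 0.0545 and 0.0591, within spans of 5.59e-11 to 0.0986 for sequence_02370 and 1.56e-11 to 0.120 for sequence_04118 over all alternatives).

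Insert sequence_10957 showed the reverse, at -2.48, -2.90, -3.21 and -2.52 in total RNA, against 1.81 and 1.86 in run-on RNA. It had 272 reads in total RNA 4 and 3978 in run-on RNA 1, over the same 818 gDNA reads. It fell by 4.56 on the log2 scale (SE 0.81, adjusted p = 0.0123, edgeR). Insert sequence_08266 stood at -4.19, -2.38, -3.21 and -2.27 in total RNA, against 2.07 and 1.49 in run-on RNA, and fell by 4.54 (SE 0.90, adjusted p = 0.0195, edgeR). Neither overlapped between the kinds. Leaving out total RNA 4, run-on RNA 1 or run-on RNA 2 ended both calls, and leaving out total RNA 1 ended that of sequence_08266.

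**Figure D4:**
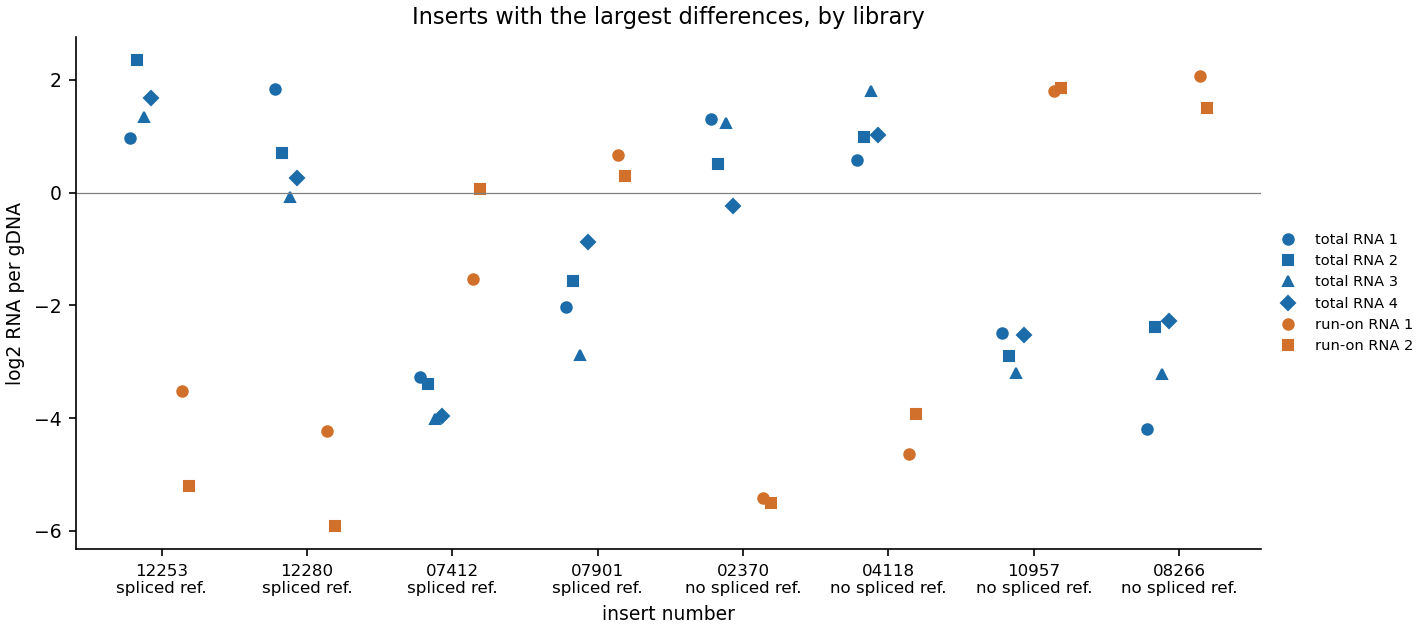
Log2 RNA per gDNA of 8 inserts in each library, with total RNA left of run-on RNA within an insert. For 4 inserts every total RNA point lies above both run-on points, and for the other 4 every total RNA point lies below them.

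The called inserts as a whole showed smaller gaps than the named ones. The 289 higher inserts without a spliced reference had a median of 1.80 in total RNA and -0.22 in run-on RNA. The median of the 139 with one was 2.54 in total RNA and 0.51 in run-on RNA. The 98 lower inserts without a spliced reference had a median of -1.64 in total RNA and 0.74 in run-on RNA. These values chose the inserts and are a description.

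The called inserts were also looked up in libraries that the comparison did not use. They were called on a contrast that contains their total RNA level at Pou5f1, and the readout at 14Rik is again total RNA. The part of the total RNA level in these values was not tested. At 14Rik (4930461G14Rik, a long non-coding RNA gene on chromosome 9 from 58455173 to 58469623, GRCm38.p6), the same inserts sat 102 nt downstream of the start site in wild-type F121-9 cells. Levels there, as in the siRNA cultures below, were scaled to library totals and not by TMM. The median level in total RNA there was 1.03 log2 RNA per gDNA for 413 inserts higher in total than in run-on RNA at Pou5f1. It was -1.79 for 101 lower ones and -0.60 for all 10052 tested inserts with a value. Above the median of the tested inserts lay 93.5% of the higher and 19.8% of the lower ones. With a spliced reference, the median was 1.53 for higher inserts and 0.50 for all tested. Without one, it was 0.84 for higher inserts and -0.74 for all tested.

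The sort-seq experiment separated cells of the Pou5f1 reporter line into 6 bins, numbered 1 to 6, and counted inserts in the gDNA of each. The mean bin of an insert had a median of 4.82 for 420 inserts higher in total RNA, 2.14 for 101 lower ones and 3.31 for all 9923. The sources used here do not say which bin held the brighter cells. Above the median of the tested inserts lay 83.3% of the higher and 19.8% of the lower inserts. With a spliced reference, 130 of 135 higher inserts and 0 of 6 lower ones did so, against 886 of all 1329 such inserts (66.7%).

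The nuclear exosome was depleted in other cultures with an siRNA against RRP40 (siRRP40), a core subunit. The level in siRRP40 minus siNT cells, in log2 RNA per gDNA, had a median of 0.01 for 333 inserts higher in total than in run-on RNA, 0.20 for 90 lower ones and 0.14 for all 7941. It was above 0 for 51.4% of the higher, 65.6% of the lower and 61.0% of all inserts. With a spliced reference, the median was -0.23 for 103 higher inserts and -0.02 for all 996. Across inserts, the log2 fold change of total over run-on RNA went with the siRRP40 difference at a Spearman rho of -0.22 among 996 inserts with a spliced reference and -0.13 among 6945 without one. It went with the 14Rik level at rho 0.53 and 0.47 and with the mean sort bin at 0.53 and 0.42. These are descriptions across inserts of 1 library, which are not replicates. The fold change contains the total RNA level, and its part in these correlations was not tested.

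**Figure D5:**
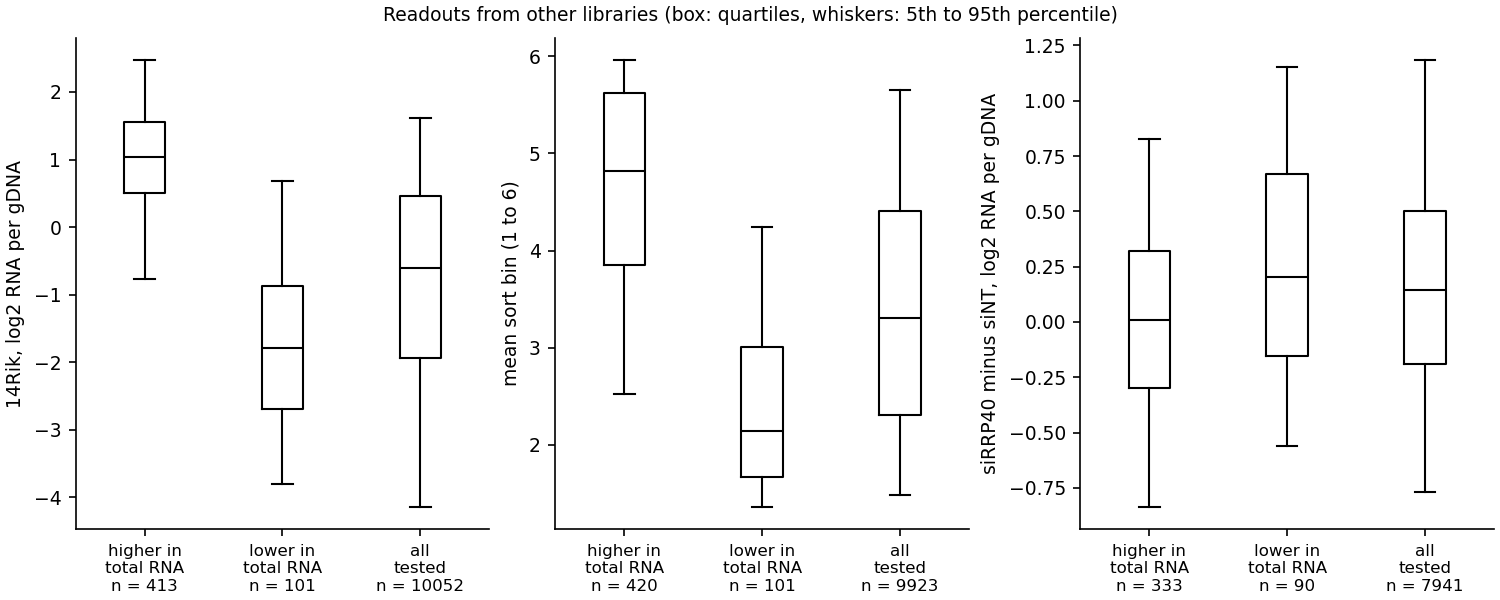
Readouts from libraries outside the comparison for inserts called higher or lower in total than in run-on RNA and for all tested inserts (box, quartiles and median; whiskers, 5th to 95th percentile). Left, log2 RNA per gDNA at 14Rik, with medians of 1.03, -1.79 and -0.60. Middle, mean sort bin, with medians of 4.82, 2.14 and 3.31. Right, siRRP40 minus siNT in log2 RNA per gDNA, with medians of 0.01, 0.20 and 0.14.

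The spread of levels over inserts did not set the kinds apart at the depth used for the other results. Between the 5th and the 95th percentile, levels spanned 5.73, 5.03, 8.10 and 5.75 in total RNA, against 5.61 and 3.88 in run-on RNA, so the ranges overlapped (exact permutation test, p = 0.267). Total RNA 3, with the widest span, also had the most inserts without a read, 531. Among the 25 inserts with at least 1000 gDNA reads in all 5 libraries, the spans averaged 3.57 in total RNA and 1.84 in run-on RNA (exact permutation test, p = 0.133, the smallest possible). Among the 2900 at a minimum of 200, a limit chosen after seeing the data, the spans were 4.74, 4.07, 4.87 and 5.09 in total RNA, against 3.80 and 2.72 in run-on RNA (p = 0.133, the smallest that this exact permutation test allows). The 100 inserts with most reads took 8.55%, 9.24%, 9.06% and 11.2% of total RNA, against 6.91% and 6.75% of run-on RNA and 5.98% to 8.74% of gDNA reads.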

How the data were processed

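Inserts were counted in RNA and gDNA of mouse embryonic stem cells. Per the submitters' processing notes, tools included cutadapt 1.14 and Bowtie2 2.3.4.3. The deposited counts are the authors' reads per insert reference, raw and unnormalized. Spliced references appear in RNA libraries only, per the file headers and values. The sources used here do not say how they were chosen. All counts are even (0 odd counts), as both mates of a pair would give. Of a library's reads, 45.7% to 53.0% had no reference and were left out.

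Unspliced and spliced counts of an insert were added to give its RNA. Levels were tested with edgeR 4.0.16 in R 4.3.3 (quasi-likelihood, robust, TMM) in a fit of 13 untreated Pou5f1 libraries (4 total, 2 run-on and 2 chromatin RNA, 5 gDNA), with kind and screen as terms, so that total and run-on RNA are compared relative to gDNA. Chromatin RNA was not compared, but its libraries entered the scaling, the screen terms and the estimate of spread. Without them 504 inserts were called, 458 of them among the 532. The labels state which gDNA belongs to which RNA. For the 4 total RNA libraries, deviations from group means correlated at 0.225 to 0.506 within such pairs and at most 0.0712 otherwise. The pairs of the run-on libraries were not checked in this way. Shares were tested on spliced and unspliced counts with a term per library. An insert was called at an adjusted p (Benjamini-Hochberg) under 0.05. A prior count of 2 went into log2 RNA per gDNA. Whether replicates were separate cultures is not stated for every library, so p-values measure the spread between these libraries, which may be technical.

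Named inserts passed the level threshold without overlap between kinds and at 200 or more gDNA reads on average. The 2 with the largest fold change per direction and class were taken, and for shares the 2 with the largest difference per direction plus 2 of those called. Members, lists and tests were chosen with earlier results of these data known. Alternatives were other tools (DESeq2, limma), scalings, filters, read classes and left-out libraries.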

Additional observations from a re-analysis of the deposited data

Results flagged for a closer look

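Among 56 sets of 4 total RNA values that were looked at, 1 held a library far from the other 3, where chance gives about 1 in 20. For inserts spliced to 90% or more in siNT cells, the median level from unspliced reads was -1.73 in total RNA 2, against -2.33 to -2.34 in the other 3 total RNA libraries. All 4 values lay below both run-on values, which were -0.42 and 0.11. The cause was not tested.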

How the results depend on the processing

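The median spliced share was higher in total RNA under every alternative tried, by 16.9 to 44.7 percentage points, and by 23.6 to 31.8 with a library left out. The class gap kept its direction under every alternative tried but one, with differences of 0.45 to 0.85 (0.58 to 0.74 with a library left out). From unspliced reads it was reversed, at -0.24, since that setting leaves out the spliced reads. The difference in spread stayed positive, at 0.14 to 2.27 (0.54 to 2.27 with a library left out).

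Counts of calls moved, for causes that were not tested. For inserts that differed, the main count of 532 (428 higher, of which 139 with and 289 without a spliced reference, and 104 lower) became 1343 (973, 291, 682 and 370) with DESeq2, 0 in all with limma on log2 RNA per gDNA (1698 at an unadjusted p under 0.05), and 282 (238, 88, 150 and 44) with a gDNA minimum of 1. At a gDNA minimum of 200, it was 277 higher, 67 of them with a spliced reference, and 159 lower. With library totals it was 176 higher (64 and 112) and 192 lower. Unspliced reads alone gave 49 higher with a spliced reference. Without the replicate block, 163 were lower. With a library left out, counts ran from 0 to 616 in all, 0 to 491 higher, 0 to 125 lower, 0 to 185 higher with and 0 to 306 higher without a spliced reference, the 0 being without both libraries of screen 4.

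For spliced shares, the 5 calls became 793 with DESeq2, 140 with at least 200 reads, 63 with counts halved to read pairs, 37 with at least 50 gDNA reads (a filter added after seeing the data), and 0 with limma on log2 odds (691 at an unadjusted p under 0.05) or with any library left out (0 to 0). No named insert changed direction, but all 8 named level calls were lost in limma and without both libraries of screen 4. A spliced share could not be fitted with the screen block, which leaves no residual degrees of freedom. Total RNA 1, at 2665226 reads, limits what can be seen of rare inserts, and 2 run-on libraries limit every test between the kinds.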
